A study of Mus musculus with 4 samples.

Results

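The 10 genes described here encode receptors, membrane co-activators, nuclear effectors and targets of Wnt/β-catenin signaling in brain endothelial cells (ECs). They were given as a list by their roles in the pathway, with earlier results of these data already known (*Fzd4*, *Fzd6*, *Tspan12*, *Adgra2*, *Reck*, *Lef1*, *Tcf7*, *Axin2*, *Apcdd1* and *Tnfrsf19*), and all 10 were found among the 12693 gene symbols of the deposited table. RNA was sequenced from 4 samples of C57BL/6 mice at embryonic day 18, of which 2 are labelled WT and 2 carry the genotype FOXQ1fl/fl;Tie2-Cre (*Foxq1* cKO). According to the methods, the cells were sorted from the cerebral cortex with an antibody to CD31, an EC surface protein, whereas the labels give brain as the source. By the methods, the WT animals came from the same litters and carried no Cre, and the Tie2 promoter that drives Cre is known to be active in blood cells and their precursors as well as in ECs. Nothing says whether samples of a group came from separate embryos or pools, so the p-values below measure only the spread between these samples.

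In the developing brain, neural cells release the ligands Wnt7a and Wnt7b, which ECs receive through a Frizzled receptor, the co-receptors Lrp5 and Lrp6, and a complex of Reck with the adhesion receptor Gpr124, the product of *Adgra2*. Another ligand, Norrin, which is not a Wnt, acts through Fzd4 with the tetraspanin Tspan12. Both inputs stabilize β-catenin, which joins the DNA-binding factors Lef1 and Tcf7 and activates genes that include inhibitors of the pathway itself. This signal is known to be needed for brain vessels to grow and to form the blood-brain barrier, and *Foxq1* is itself counted among its targets in brain ECs.

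Values are normalized counts, the reads on a gene divided by 1 size factor per sample. The samples held between 15827166 and 21466436 reads on listed genes, and the size factors lay between 0.919 and 1.19. *Foxq1* had 353 and 297 normalized counts in WT and 5.44 and 32.6 in *Foxq1* cKO samples, a log2 fold change of -4.47 (SE 1.04, unadjusted p = 0.00507 and adjusted p = 0.857 in limma). The adjusted p of *Foxq1* was 0.00854 in DESeq2 and 0.937 in edgeR. WT replicate 1 stood somewhat apart from the rest, with Pearson correlations across 12693 genes of 0.854 to 0.869 to the other samples, against 0.887 to 0.911 among those, so results are also given without it. EC markers were high, with a summed level of 363518 and 388373 in WT and 331048 and 353950 normalized counts in *Foxq1* cKO samples for 18 of 18 listed genes. Transcripts of pericytes and smooth muscle were also abundant, with 12 of 15 markers listed and sums of 165454 to 168501 in WT and 157430 to 173783 in *Foxq1* cKO samples. Neural markers (20 of 24 listed) summed to 29032 and 29051 in WT and to 27854 and 28673 in *Foxq1* cKO samples, and their part in the levels below was not tested. Markers of microglia (12 of 12 listed) summed to 11629 and 14148 in WT and to 9092 and 10258 in *Foxq1* cKO samples, those of meningeal fibroblasts (5 of 10) to 9112 and 10152 against 5949 and 9787, and those of erythroid cells (7 of 8) to 15769.7 and 20859 against 16022 and 20516. Of all these markers, *Flt1* and *Csf1r* were lower in *Foxq1* cKO samples at an unadjusted p under 0.05 in limma, and 0 passed after adjustment. Among all genes tested, 5.22% had such a p in either direction. *Flt1* no longer had it without WT replicate 1 (log2 fold change -0.22 instead of -0.48) or without either *Foxq1* cKO sample (-0.53 and -0.44). The 12 microglia markers were split, with 5 positive and 7 negative log2 fold changes and a median of -0.082.

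No member passed the test between *Foxq1* cKO and WT samples. Of 12472 genes with a mean of at least 10 normalized counts, limma called 0 at a Benjamini-Hochberg adjusted p under 0.05 (0%), and 0 of the 10 members, while across all genes DESeq2 called 59 and edgeR 0. At an unadjusted p under 0.05, limma called 3.05% of genes as lower and 2.17% as higher (5.22% in all), and 0 of 10 members. DESeq2 and edgeR, run on the recovered reads, also called 0 members after adjustment. Unadjusted, edgeR called 0 of 10 and DESeq2 1 of 10, *Reck*, beside 3.77% of all genes called as lower by DESeq2. The balance of directions over all genes depends on the setting: limma called 473 genes as higher and 214 as lower after scaling to EC markers, and 507 and 317 without WT replicate 1, against 271 and 380 above. The groups did not overlap for 4 members: *Fzd6*, *Tspan12* and *Reck* were lower in both *Foxq1* cKO samples and *Lef1* was higher. Across all genes tested, 18% had non-overlapping groups with lower and 18% with higher values in *Foxq1* cKO samples, so 4 of 10 is near the background. Of the 10 members 8 had a negative log2 fold change, beside 6149 of the 12472 genes tested. The median log2 fold change was -0.13 over the members and 0.0086 over all genes tested. Scaling to EC markers shifts every gene by the same amount and moved these medians to 0.024 and 0.16. With that scaling *Tcf7*, *Apcdd1* and *Tnfrsf19* turned positive. The sign of the members' median thus depends on the scaling, while it lay below the median of all genes with either scaling.

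**Figure D1:**
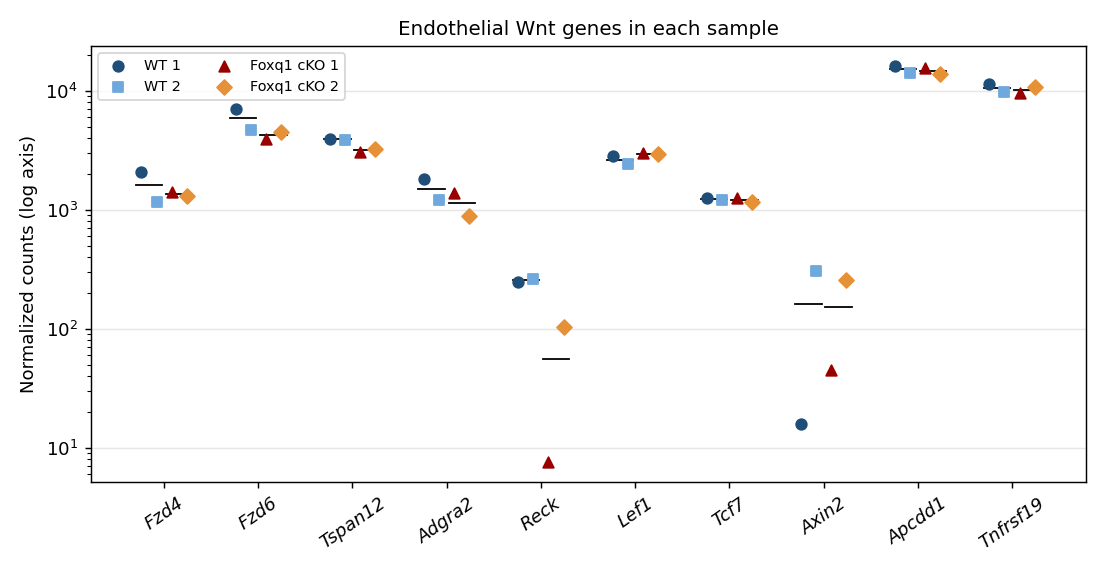
Normalized counts (log axis) of the 10 endothelial Wnt genes in each of the 4 samples, with group means as short lines. *Reck* separates the groups most, from 246 and 264 in WT to 7.62 and 104 in *Foxq1* cKO, while *Axin2* differs more within each group than between them.

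Gene positions are given on GRCm38 from GENCODE M21, since the deposited table holds none. The receptors were examined first. *Fzd4* (chr7:89404355-89413134), the Frizzled that binds Norrin as well as Wnts, had 2072 and 1158 normalized counts in WT and 1409.8 and 1303 in *Foxq1* cKO samples. Both *Foxq1* cKO values lay between the WT values, and the log2 fold change was -0.19 (SE 0.34, unadjusted p = 0.587 and adjusted p = 0.941 in limma). Its 95% interval ran from 0.495-fold to 1.55-fold. Without WT replicate 1 the log2 fold change of *Fzd4* changed sign to 0.23.

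*Fzd6* (chr15:39006034-39038188), a Frizzled best known from planar cell polarity, had 7051 and 4683 normalized counts in WT and 3954 and 4483 in *Foxq1* cKO samples. The groups did not overlap, but the lower WT sample was close to the higher *Foxq1* cKO sample. The log2 fold change was -0.45 (SE 0.23, unadjusted p = 0.102 and adjusted p = 0.857 in limma), and the interval ran from 0.494-fold to 1.09-fold. Most of that difference came from WT replicate 1: without it the log2 fold change was -0.15 (unadjusted p = 0.508), and without WT replicate 2 it was -0.74 (unadjusted p = 0.0112 in limma).

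The membrane proteins that sharpen the response to particular ligands were examined next. *Tspan12* (chr6:21771395-21852515), the tetraspanin that enhances Norrin signaling, had 3954 and 3844 normalized counts in WT and 3058 and 3242 in *Foxq1* cKO samples. Replicates lay close together in both groups, and the *Foxq1* cKO mean was 80.8% of the WT mean. The log2 fold change was -0.31 (SE 0.17, interval -0.72 to 0.11, unadjusted p = 0.120 and adjusted p = 0.857 in limma), and without WT replicate 1 it was -0.29.

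*Adgra2* (chr8:27085583-27123436), which encodes Gpr124, had 1799.8 and 1200.3 normalized counts in WT and 1386 and 879.9 in *Foxq1* cKO samples. The groups overlapped, and the log2 fold change of -0.41 had an SE of 0.35 (unadjusted p = 0.285 and adjusted p = 0.880 in limma). Leaving out WT replicate 1 gave -0.12, and leaving out *Foxq1* cKO replicate 2 gave -0.085.

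*Reck* (chr4:43875530-43944806), the membrane-anchored partner of Gpr124 that gives the complex its preference for Wnt7 ligands, showed the largest difference of the members. It had 246 and 264 normalized counts in WT, from 292 and 265 reads, and 7.62 and 104 in *Foxq1* cKO samples, from 7 and 102 reads. The WT samples differed by 1.07-fold and the *Foxq1* cKO samples by 13.6-fold, so the size of the difference rests largely on *Foxq1* cKO replicate 1. The *Foxq1* cKO mean of 55.7 ± 68.0 (SD, n = 2) was 21.8% of the WT mean of 255 ± 12.8 (SD, n = 2). On the log2 scale after adding 1, the difference was -3.09 (SE 1.27, interval -6.19 to 0.013, unadjusted p = 0.0507 and adjusted p = 0.857 in limma), which ranked 659 among 12472 genes by p. It was -1.29 without *Foxq1* cKO replicate 1 (unadjusted p = 0.176) and -4.89 without *Foxq1* cKO replicate 2 (unadjusted p = 0.0069 in limma). Without WT replicate 1 it was -3.14 (unadjusted p = 0.0881). On the recovered reads DESeq2 gave *Reck* a log2 fold change of -2.19 (unadjusted p = 0.0485, adjusted p = 0.767), and edgeR also gave -2.19 (unadjusted p = 0.116, adjusted p = 0.937). In bulk samples, fewer cells with a transcript and less of it per cell cannot be told apart.

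Promoter windows of 250 bases before the most upstream annotated start were read from RefSeq (GRCm38.p6), which matched 7 of the 10 members. *Reck* and *Axin2* are printed because they gave the widest intervals. *Reck* (plus strand) is shown at chr4:43875280-43875529, with a G+C content of 68.4%, and *Axin2* (plus strand) at chr11:108920099-108920348, with 69.2%. Capitals mark the GC box GGGCGG and the CCAAT box, searched on both strands.
Reck: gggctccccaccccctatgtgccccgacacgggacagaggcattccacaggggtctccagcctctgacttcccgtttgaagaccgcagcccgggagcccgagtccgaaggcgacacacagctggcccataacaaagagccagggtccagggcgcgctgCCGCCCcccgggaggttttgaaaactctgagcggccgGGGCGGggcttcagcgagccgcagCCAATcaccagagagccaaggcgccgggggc
Axin2: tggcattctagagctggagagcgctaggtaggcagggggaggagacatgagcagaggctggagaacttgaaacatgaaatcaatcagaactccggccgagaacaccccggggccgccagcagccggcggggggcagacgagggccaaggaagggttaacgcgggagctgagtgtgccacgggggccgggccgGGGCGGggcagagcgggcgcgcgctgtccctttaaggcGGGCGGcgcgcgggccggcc
In *Reck* the GC boxes begin 92 and 55 bases before the start and a CCAAT box begins 31 bases before it, and in *Axin2* the GC boxes begin 58 and 20 bases before the start. These boxes were added to the search after the first motifs gave no match. GC boxes were found in 33% and CCAAT boxes in 34.5% of 27025 windows of this length, 1 per gene. The letters CTTTGA, a core of sites bound by Lef1 and Tcf7, were in 14.1% of windows and in 0 of the 7 member windows. Other forms of this site, such as CTTTGT, were not searched, and the printed *Reck* window holds its reverse letters ACAAAG. The forkhead core TGTTTA was in 12% of windows and likewise in 0 of 7. The paper reports that FOXQ1 prefers other letters, GTTTC, which were not searched. Their reverse letters GAAAC occur in the printed *Axin2* window. These searches describe the letters of short windows only.

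**Figure D2:**
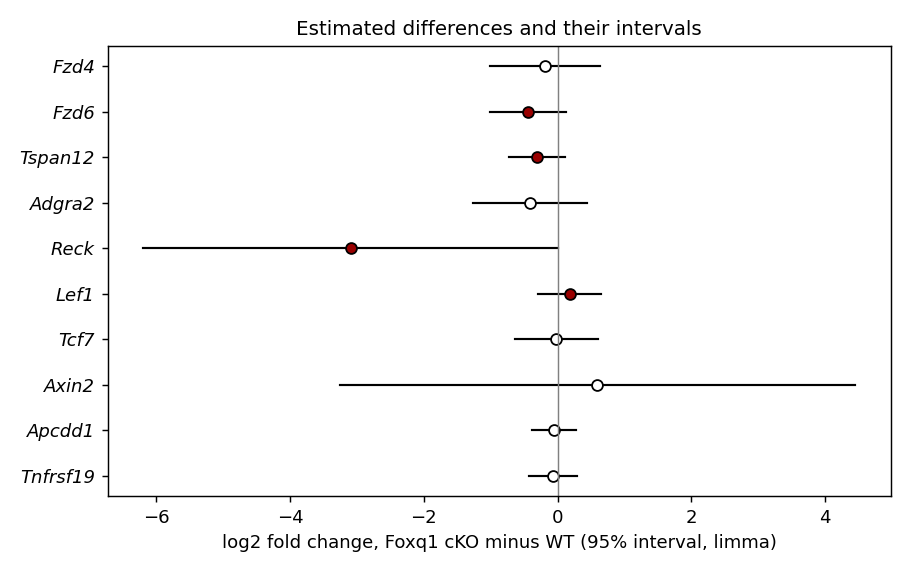
Log2 fold change of each member (*Foxq1* cKO minus WT) with its 95% interval from limma, where filled points are members whose groups did not overlap. The intervals of *Apcdd1* and *Tnfrsf19* are narrow around 0, that of *Reck* runs from -6.19 to 0.013, and that of *Axin2* from -3.26 to 4.45.

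Replicates of the nuclear effectors lay close together. *Lef1* (chr3:131110471-131224356), a DNA-binding partner of β-catenin, had 2818 and 2421 normalized counts in WT and 2969 and 2960.3 in *Foxq1* cKO samples. Both *Foxq1* cKO samples were above both WT samples, and the log2 fold change was 0.18 (SE 0.19, interval -0.29 to 0.65, unadjusted p = 0.379 and adjusted p = 0.893 in limma). Without WT replicate 1 it was 0.29 (unadjusted p = 0.268), and without WT replicate 2 it was 0.073. An annotated antisense gene, *Gm43352*, shares 1208 bp or 13.7% of the *Lef1* exons, and whether counting used the strand is not given in the sources used here.

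*Tcf7* (chr11:52252371-52283014), the other abundant β-catenin partner here, had 1256 and 1201 normalized counts in WT and 1266 and 1163 in *Foxq1* cKO samples. The groups overlapped, and the log2 fold change was -0.018 (SE 0.25, adjusted p = 0.995 in limma) with an interval from 0.643-fold to 1.52-fold. Differences in *Tcf7* within these bounds were not detectable with 2 samples per group. The log2 ratio of *Lef1* to *Tcf7* within a sample, which does not depend on the scale of the sample, was 1.16 and 1.01 in WT and 1.23 and 1.35 in *Foxq1* cKO samples. The groups of this ratio did not overlap, and an exact two-sided permutation test gave p = 0.333, the smallest that 2 against 2 samples allow (0.833 after Benjamini-Hochberg adjustment over 5 ratios).

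Of the 3 target genes, 2 were abundant with close replicates. *Apcdd1* (chr18:62922231-62961179), a membrane inhibitor of Wnt signaling that the pathway induces in brain ECs, had 16196 and 14079 normalized counts in WT and 15487 and 13809 in *Foxq1* cKO samples. *Tnfrsf19* (chr14:60963875-61046490), which encodes the TNF receptor family member Troy and is a known Wnt target of brain ECs, had 11463 and 9716 in WT and 9545 and 10652 in *Foxq1* cKO samples. For both genes the groups overlapped and replicates differed by at most 1.18-fold. Their log2 fold changes were -0.046 (SE 0.13) for *Apcdd1* and -0.066 (SE 0.15) for *Tnfrsf19*, with adjusted p = 0.967 and 0.958 in limma. The 95% interval was 0.771-fold to 1.22-fold for *Apcdd1* and 0.745-fold to 1.23-fold for *Tnfrsf19*, the narrowest of the members.

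*Axin2* (chr11:108920349-108950783), the destruction complex scaffold that is the most widely used readout of Wnt/β-catenin activity, was low and unsteady. It had 16.01 and 304 normalized counts in WT, from 19 and 305 reads, and 44.6 and 258 in *Foxq1* cKO samples, from 41 and 254 reads. The replicate 1 samples of both groups were low and the replicate 2 samples high, so the samples differed by 19.0-fold within WT and by 5.79-fold within *Foxq1* cKO. Among 3118 genes with a mean within 2-fold of its own, 5.0% had a ratio at least as large between the WT samples and 7.18% between the *Foxq1* cKO samples. Group means were 160.04 ± 204 and 152 ± 151 normalized counts (SD, n = 2). The log2 fold change was 0.59 (SE 1.58, adjusted p = 0.962 in limma), with an interval from 0.105-fold to 21.8-fold, and on the recovered reads it was -0.078 in DESeq2 and -0.082 in edgeR. It was -1.49 without WT replicate 1 and 2.68 without WT replicate 2, so neither a rise nor a fall of *Axin2* could be read from these samples.

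Levels of different genes were compared as normalized counts per kb of annotated exon. *Tnfrsf19* was the highest member, at 2015 to 2419 per kb over the 4 samples, and its range did not overlap that of *Apcdd1*, at 1072 to 1257. *Apcdd1*, *Tspan12* (924 to 1194) and *Fzd6* (821 to 1463) followed with overlapping ranges. *Tcf7*, at 443 to 482, lay below these and above *Lef1*, at 275 to 338, in all 4 samples. *Adgra2* (152 to 312) and *Fzd4* (172 to 308) had overlapping ranges, and both also met that of *Lef1*. At the bottom were *Reck*, at 1.59 to 55.3, and *Axin2*, at 2.91 to 55.2, which could not be ordered.

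**Figure D3:**
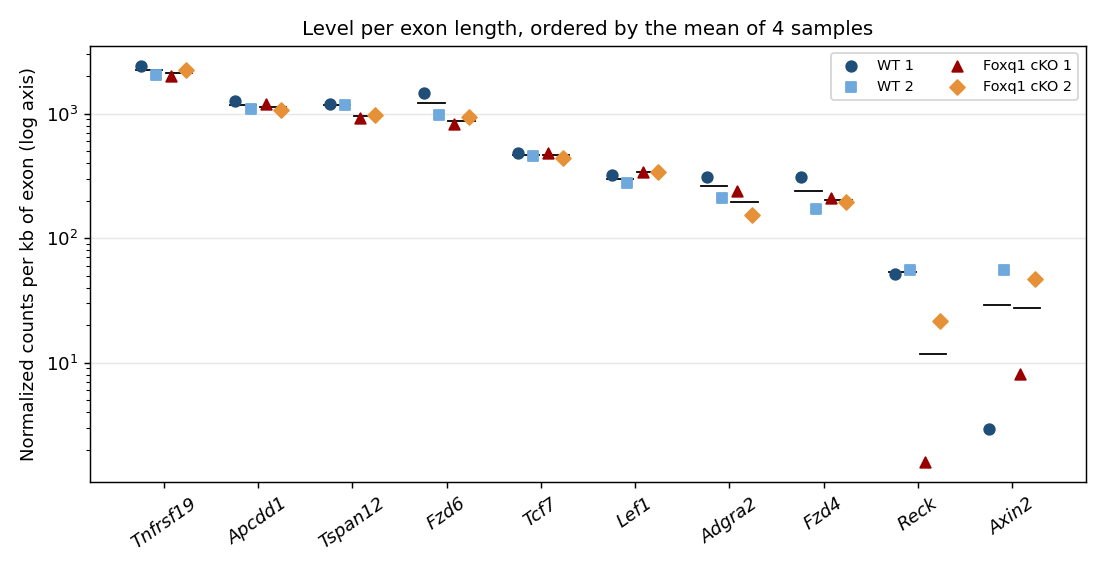
Normalized counts per kb of exon (log axis) in each sample, with members ordered by their mean over the 4 samples and group means as short lines. *Tnfrsf19* lies at 2015 per kb or above in all samples, and *Reck* and *Axin2* lie at or below 55.3.

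Within their families, the members were the leading genes. Among 5 listed Frizzled genes, *Fzd6* held 72.6% to 77.5% of the summed level per kb in the 4 samples and *Fzd4* 13.7% to 18.6%, while *Fzd1*, *Fzd2* and *Fzd3* each held at most 4.68%. Among the 4 TCF/LEF genes, *Tcf7* held 44.0% to 50.5% and *Lef1* 29.5% to 35.8%, above *Tcf7l2* (10.1% to 14.9%) and *Tcf7l1* (7.08% to 11.6%). The order of these genes was the same in WT and *Foxq1* cKO samples for the leading pair of each family.

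The ratio of partners was also followed within samples. The log2 ratio of *Adgra2* to *Reck* was 2.87 and 2.18 in WT and 7.33 and 3.07 in *Foxq1* cKO samples, a difference of 2.68 that an exact permutation test could not take below p = 0.333. Without *Foxq1* cKO replicate 1 that difference was 0.55. The log2 ratio of *Fzd4* to *Fzd6* was -1.77 and -2.01 in WT and -1.49 and -1.78 in *Foxq1* cKO samples, and that of *Fzd4* to *Tspan12* was -0.93 and -1.73 against -1.12 and -1.31. The ratio of *Axin2* to *Apcdd1*, both induced by the pathway, spanned -9.90 to -5.53 in WT and -8.41 to -5.73 in *Foxq1* cKO samples. These 3 ratios overlapped between the groups (exact permutation p = 0.667, 1 and 1 in the order given).

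Other genes of the pathway were described from lists of upstream and downstream roles, which were also drawn up with earlier results of these data known, so their counts are descriptions. Of 23 ligand genes (Wnts, R-spondins and *Ndp*, which encodes Norrin), 2 were among the listed symbols, *Wnt5a* and *Wnt7b*. *Wnt7b*, a neural ligand for ECs, had 310.1 and 272 normalized counts in WT and 143 and 146 in *Foxq1* cKO samples (log2 fold change -1.0, SE 0.57, unadjusted p = 0.126 in limma), and *Wnt5a*, which mostly acts without β-catenin, had a log2 fold change of -0.012. Neither passed the test. Neural markers, whose part in the *Wnt7b* values was not tested, had a median log2 fold change of -0.32, with 0 of 20 at an unadjusted p under 0.05. Of 9 other receptors and co-receptors tested, 0 had an unadjusted p under 0.05 in limma. Their median log2 fold change was -0.26, in a range from -1.24 to 2.35. The most abundant were *Ptk7*, a pseudokinase co-receptor (-0.28, SE 0.25), and *Lrp6* (-0.39, SE 0.42). Of 18 cytoplasmic transducers and destruction complex genes, 0 passed unadjusted, with a median of -0.21 and a range from -1.54 to 0.75. β-catenin itself (*Ctnnb1*) had 6085 and 3673 normalized counts in WT and 4362 and 3735 in *Foxq1* cKO samples (-0.23, SE 0.27), and the kinase *Csnk1a1* was at -0.19 (SE 0.16). Of 16 other nuclear effectors 0 passed unadjusted, with a median of 0.11 and a range from -0.79 to 0.94. Since limma called 5.22% of all genes tested at that threshold, a count of 0 in lists this short says little of them.

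Inhibitors of the pathway differed among themselves in direction. Of 12 tested of 25 named, 2 were higher and 1 lower in *Foxq1* cKO samples at an unadjusted p under 0.05 in limma. Over all genes tested, 5.22% passed unadjusted in either direction. After adjustment 0 of the 12 passed, and their median log2 fold change was 0.20. *Frzb*, a secreted Frizzled-like antagonist, had 1719.8 and 963 normalized counts in WT and 239.5 and 385 in *Foxq1* cKO samples (log2 fold change -2.08, SE 0.46, unadjusted p = 0.00384 and adjusted p = 0.857 in limma). *Dkk2*, which binds Lrp5 and Lrp6, had 2.53 and 112 in WT and 403 and 340 in *Foxq1* cKO samples (4.22, SE 1.62, unadjusted p = 0.0397 and adjusted p = 0.857 in limma), with the WT samples 44.2-fold apart. *Shisa2*, which retains Frizzled receptors inside the cell, had 5.06 and 3.99 in WT and 51.2 and 49.8 in *Foxq1* cKO samples, from 6, 4, 47 and 49 reads (3.23, SE 0.99, unadjusted p = 0.0172 in limma). In DESeq2 the unadjusted p was 5.63e-06 for *Frzb*, 0.0192 for *Dkk2* and 0.0635 for *Shisa2*, with an adjusted p of 0.00301 for *Frzb*. In edgeR the unadjusted p was 0.00358 for *Frzb*, 0.110 for *Dkk2* and 0.00702 for *Shisa2*, each with an adjusted p of 0.937. *Dkk2* and *Shisa2* were no longer past an unadjusted p of 0.05 in limma without *Foxq1* cKO replicate 1 (0.146 and 0.104) or without *Foxq1* cKO replicate 2 (0.128 and 0.0964), while *Frzb* was past it without any 1 sample. Without WT replicate 1 the log2 fold change of *Dkk2* was 1.72.

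Downstream of β-catenin, 0 of 9 general Wnt target genes passed unadjusted in limma (median log2 fold change 0.080). *Jun* was at 0.080 (SE 0.10), and *Ccnd1*, which encodes cyclin D1, had 12405 and 15890.3 normalized counts in WT and 9624 and 12286 in *Foxq1* cKO samples (-0.37, SE 0.19, unadjusted p = 0.0934). Of 27 genes that depend on Wnt signaling in brain ECs, 2 were higher and 5 lower at an unadjusted p under 0.05 in limma. Over all genes tested, 5.22% passed unadjusted in either direction. After adjustment 0 of the 27 passed, and their median was -0.022. The 5 lower genes include *Foxq1* itself, the target of the deletion. *Slc16a1*, the monocarboxylate transporter of the barrier, was at -0.75 (SE 0.12, unadjusted p = 7.18e-04), and *Fgfbp1*, a secreted carrier of fibroblast growth factors, at -0.98 (SE 0.22, unadjusted p = 0.00449). *Car4*, a membrane carbonic anhydrase, was at 1.86 (SE 0.40, unadjusted p = 0.00319), each with adjusted p = 0.857 in limma. In DESeq2 the adjusted p was 0.00323 for *Slc16a1*, 1.81e-04 for *Car4* and 0.0585 for *Fgfbp1*. All 3 had an unadjusted p under 0.05 in limma without any 1 sample. *Mfsd2a*, a lipid transporter of the barrier (-0.31), and *Ablim1* (-0.28) were the other lower genes and *Itm2a* (0.30) the other higher gene, named after their values were seen. *Mfsd2a* and *Ablim1* were no longer past an unadjusted p of 0.05 without WT replicate 1 (0.155 and 0.134 in limma) nor *Itm2a* without WT replicate 2 (0.136), and all 3 missed it without either *Foxq1* cKO sample (0.0552 to 0.175). *Cldn5* and *Plvap* stand both in this list and among the EC markers. Other lists share genes too. *Nkd1*, *Znrf3* and *Notum* are among both the inhibitors and the general targets, and *Tcf7l2* among both the nuclear effectors and the general targets. *Pdgfra* is both a neural and a fibroblast marker here. The list of Wnt-dependent genes was not divided by whether Wnt signaling raises or lowers a gene. Its median thus does not measure the activity of the pathway.

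**Figure D4:**
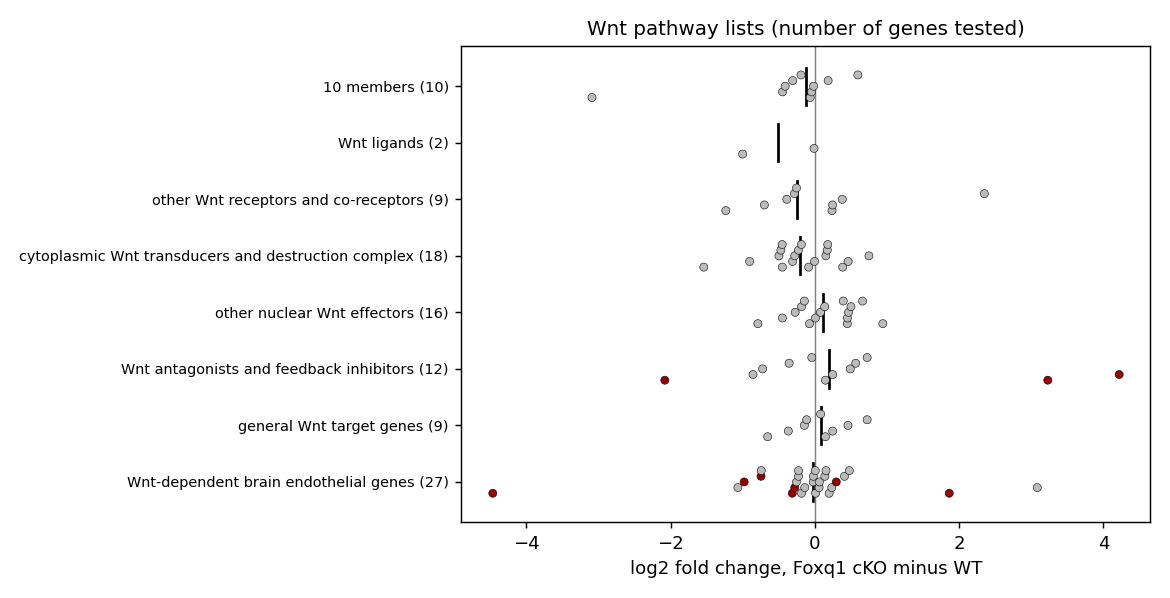
Log2 fold changes (*Foxq1* cKO minus WT) of the 10 members and of the genes tested in 7 Wnt pathway lists, where each point is a gene, vertical lines are list medians and dark red marks an unadjusted p under 0.05 in limma. All list medians lie between -0.51 and 0.20, and dark red points occur among the inhibitors (3 genes) and the Wnt-dependent brain endothelial genes (7 genes). Over all genes tested, 5.22% had such a p.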

How the data were processed

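RNA of 2 WT and 2 *Foxq1* cKO samples was sequenced. The methods describe CD31-sorted cortical cells and RNA extraction with TRIzol. The paper's results name Smart-seq2, which amplifies full-length cDNA. In contrast, the labels give brain and state that 2 ug of total RNA entered each library. The submitters' processing notes name Bowtie2 2.2.3, TopHat2 2.0.12, HTSeq 0.6.0 and mm9. Annotation, strand setting and normalization tool are not given in the sources used here.

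The authors deposited a normalized signal per gene. All values (100% in each sample, within 0.01 read) were whole multiples of the value of 1 read, so reads were recovered. The deposited table held 1207361 lines, with many repeats, which were reduced to 12693 symbols. Among these the lowest value was 1 read in a sample and 21 reads over the 4 samples. Reads without molecular identifiers are not independent molecules.

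Differences were tested with limma 3.58.1 in R 4.3.3 (eBayes with trend) on log2(value + 1), keeping genes whose mean reached 10, with Benjamini-Hochberg adjustment over all 12472. The added 1 shrinks changes of low genes, but on this scale a single low sample can also enlarge them. The log2 fold change of *Dkk2* was 4.22 in limma and 2.70 in DESeq2, and that of *Shisa2* was 3.23 and 3.48. The median SE of a log2 fold change was 0.50. DESeq2 1.42.0 and edgeR 4.0.16 were run on recovered reads. The scripts were tested on simulated counts. Other alternatives were pseudocounts of 0.1 and 5, other filters, 3 other scalings, no trend, the replicate number as a block, and each sample left out. The replicate numbers are shared by the groups only as labels, and the differences between replicates 1 and 2 correlated at 0.033 between WT and *Foxq1* cKO across genes. Ratios were tested by exact permutation (scipy 1.17.1). Exon lengths came from GENCODE M21 (GRCm38) and use union exons of all transcripts, so levels per kb are approximate.

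Members and lists were chosen with earlier results of these data known. Genes beyond the members were named by rule: *Foxq1*, and of each pathway list up to 4 with an unadjusted p under 0.05 and a mean of at least 50, or otherwise the 2 with the highest mean, and of each marker list the 2 with the highest mean and any past adjustment. *Shisa2*, with a lower mean, completes a count of 3. *Flt1*, *Mfsd2a*, *Ablim1*, *Itm2a*, *Nkd1*, *Notum* and *Pygo1* were named after their values were seen.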

Additional observations from a re-analysis of the deposited data

How the results depend on the processing

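With 2 samples per group, the median SE of a log2 fold change over all genes was 0.50. Over 11 settings that kept the 4 samples, 98 of 110 results for single members kept their direction and their side of an unadjusted p of 0.05. *Reck* had an unadjusted p under 0.05 with a pseudocount of 5, quantile normalization, DESeq2 and the replicate block (range over the 11 settings 0.0311 to 0.116, lowest adjusted p among them 0.767, and 0.469 once single samples were left out), so the number of members past that threshold was 1 instead of 0 in these. With the replicate block no other member was called, and the replicate numbers are shared labels only. Scaling to EC markers adds the same amount to every log2 fold change. It moved the median log2 fold change of all genes from 0.0086 to 0.16 and that of the members from -0.13 to 0.024. By that shift it reversed *Tcf7* (0.14), *Apcdd1* (0.11), *Tnfrsf19* (0.088), *Wnt5a* (0.14), *Cldn5* (0.013), *Kcnj8* (0.062) and *Hba-a1* (0.11). Quantile normalization gave *Tcf7* 0.014, *Apcdd1* 0.049, *Tnfrsf19* 0.043, *Rgs5* -0.067 and *Hba-a1* 0.082, reversed from their values, and *Cldn5* 0. *Axin2* reversed in DESeq2 (-0.078) and edgeR (-0.082). Without a trend in eBayes, 1 instead of 2 cell type markers passed an unadjusted p of 0.05. Leaving out single samples, the members past that threshold numbered 0 to 1, the pathway genes 6 to 17 and the markers 2 to 7, while the share of all genes past it ran from 2.22% (without *Foxq1* cKO replicate 1) to 12.6% (without WT replicate 2), so these counts say little of the lists themselves. The member median then ranged from -0.26 to -0.053. The lone sample of a group is then assumed to vary like the others. Signs turned in the ranges of *Fzd4* (-0.61 to 0.23), *Tcf7* (-0.079 to 0.043), *Axin2* (-1.49 to 2.68), *Apcdd1* (-0.15 to 0.055), *Tnfrsf19* (-0.19 to 0.054), *Wnt5a* (-0.73 to 0.70), *Lrp6* (-0.84 to 0.062), *Ctnnb1* (-0.59 to 0.14), *Smarca4* (-0.11 to 0.12), *Crebbp* (-0.18 to 0.34), *Rgs5* (-0.015 to 0.046), *Kcnj8* (-0.21 to 0.022), *Col1a2* (-0.38 to 0.47), *Hba-a1* (-0.24 to 0.16) and *Hbb-bs* (-0.10 to 0.52). The causes were not tested.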

Other observations

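*Pygo1*, a nuclear adaptor of β-catenin, was noticed after its values were seen because it varied like *Axin2*: it had 1.69 and 177 normalized counts in WT and 15.2 and 108 in *Foxq1* cKO samples, low in both replicate 1 samples. Its log2 fold change was 0.94 (unadjusted p = 0.672 in limma), and -2.09 without WT replicate 1. Among the feedback inhibitors that the pathway induces, *Nkd1* had 1193 and 2139 normalized counts in WT and 2601 and 2679.5 in *Foxq1* cKO samples (log2 fold change 0.72, unadjusted p = 0.0613 in limma), which was 0.30 without WT replicate 1 (unadjusted p = 0.270), and *Notum* had 95.2 and 71.8 against 84.9 and 98.7. Both were named after their values were seen.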
